A study of Mus musculus with 8 samples.

Results

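The tropomyosin genes Tpm1, Tpm2, Tpm3 and Tpm4 and the single-exon gene Tpm3-rs7 were followed across cortical nuclei of 4 Wt and 4 Ifnar1-/- mice. These 5 genes were chosen by symbol from the 31053 genes of the deposited count tables, after Tpm3 had been seen to be higher and Tpm3-rs7 lower in Ifnar1-/- in earlier results from the same libraries. The genotype difference of every member is therefore given as a description and was not tested. The mice were naive, 6 weeks old and on the C57BL6J strain, with 2 females (F1, F2) and 2 males (M1, M2) of each genotype and 1 single-nucleus (sn)RNA-seq library per mouse. Ifnar1-/- mice lack the type-I interferon receptor subunit IFNAR1 in all cells and had been backcrossed to C57BL/6J, and Wt mice carried Ifnar1+/+. The libraries hold RNA of nuclei, spliced and unspliced, so levels describe nuclear RNA and not protein.

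Tropomyosins are coiled-coil dimers that lie end to end along actin filaments and set which myosins, severing proteins and nucleators can reach the filament. Mammals carry 4 tropomyosin genes, each giving many isoforms through alternative promoters and exons. In the brain, cytoskeletal tropomyosins are found in growth cones, dendrites and synapses, and muscle isoforms work with troponin in contraction. Retrogenes are genes that arise when a spliced mRNA is copied back into the genome. Whether Tpm3-rs7, which has a single exon, arose in this way was not tested.

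In the mouse genome GRCm38 (GENCODE vM21), Tpm3 (ENSMUSG00000027940) lies on the plus strand of chromosome 3 from 90072649 to 90100902 and has 16 listed transcripts. Tpm3-rs7 (ENSMUSG00000058126) lies on the plus strand of chromosome 14 from 113314608 to 113316754, as 1 exon and 1 transcript of 2147 bases, and is annotated as protein coding. Tpm1 (ENSMUSG00000032366) lies on the minus strand of chromosome 9 from 67022590 to 67049406 with 21 transcripts, and Tpm2 (ENSMUSG00000028464) on the minus strand of chromosome 4 from 43514711 to 43523765 with 6. Tpm4 (ENSMUSG00000031799) lies on the plus strand of chromosome 8 from 72134975 to 72153142 with 2 transcripts. The 5 genes are thus on 5 chromosomes.

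The Tpm3-rs7 transcript matched the Tpm3 transcript Tpm3-201, which has 8 exons, over 2102 aligned bases, of which 2089 were identical (99.4%), with 13 substitutions and 3 gaps. The coding sequence, stop codon included, is 747 bases long in both and has no gap, and it holds 3 of the substitutions, G140A, G166A and G195A. Positions count from 1 at the 5′ end of the Tpm3-rs7 transcript, and the first letter is the Tpm3 base. All 3 fall in the stretch of 120 bases below, shown because it holds every substitution between the coding sequences. In Tpm3-201 the stretch spans bases 245 to 364, from exon 1 to exon 2 (chr3:90079784-90086485, plus strand, with an intron between), and in Tpm3-rs7 bases 121 to 240 of its exon (chr14:113314728-113314847, plus strand). Capitals mark the bases that differ.
Tpm3: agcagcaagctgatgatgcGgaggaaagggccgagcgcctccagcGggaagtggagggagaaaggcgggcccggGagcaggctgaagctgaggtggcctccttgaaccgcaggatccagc
Tpm3-rs7: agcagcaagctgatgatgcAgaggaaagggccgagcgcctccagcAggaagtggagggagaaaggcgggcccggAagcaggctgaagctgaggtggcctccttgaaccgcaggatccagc

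The other 10 substitutions lie after the coding sequence, from A1071G to T2039A. Cut into windows of 91 bases, the length of the cDNA read, 1092 of 2057 windows of the Tpm3-rs7 transcript (53.1%) also occurred letter for letter in a Tpm3 transcript, as did 116 of the 410 windows in its last 500 bases (28.3%). The longest shared run was 628 bases, from 196 to 823, inside and just past the coding sequence. No window of Tpm3-rs7 was shared with Tpm1, Tpm2 or Tpm4, and none was shared among Tpm1, Tpm2, Tpm3 and Tpm4. The best-scoring transcripts of these other genes aligned to Tpm3-rs7 over shorter stretches, with identities of 79.9% (Tpm1-208), 75.8% (Tpm2-201) and 75.2% (Tpm4-201). The counts of Tpm3 and Tpm3-rs7 are uncertain for this reason. Which of their unique molecular identifiers (UMIs) came from the other gene was not tested. Whether reads from shared stretches were counted at all was not tested either, and counts per gene do not show which bases were read. The windows were cut from spliced transcripts, while the authors' counts took in unspliced RNA too. UMIs from Tpm3 introns count for Tpm3 alone, since Tpm3-rs7 has no intron.

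**Figure D1:**
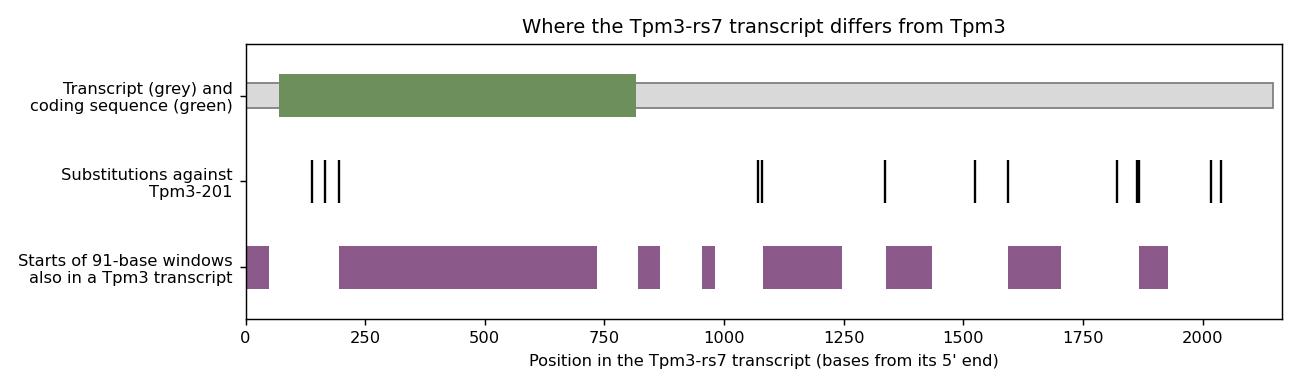
The x axis is the position in the Tpm3-rs7 transcript in bases from its 5′ end. The top row shows the transcript in grey and its coding sequence (bases 69 to 815) in green, the middle row the 13 substitutions against Tpm3-201 and the bottom row the start positions of the 1092 windows of 91 bases that also occur in a Tpm3 transcript. The coding sequence after base 195 holds no substitution, and the last 500 bases are split into short shared blocks.

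The libraries held 44063346 to 58423423 UMIs each. Of 56780 barcodes 52054 were kept as nuclei (26197 Wt, 25857 Ifnar1-/-), in 36 clusters that were grouped into classes by marker genes. A class name below means nuclei that resemble that cell type: 24836 glutamatergic neurons, 6196 GABAergic neurons, 7087 oligodendrocytes and 4386 microglia, with median depths of 8837, 7011, 2056 and 1472 UMIs per nucleus. Astrocytes came to 162 nuclei, too few to describe, 7374 nuclei had no name, and 1559 nuclei carried markers of striatal projection neurons although the tissue was labelled cortex. Vascular cells, in which muscle tropomyosins are abundant, named no cluster. Of the endothelial markers, Cldn5 gave 39 UMIs in all nuclei, Kdr 142, Flt1 407, Pecam1 1447 and Tek 17298, and 1 unnamed cluster of 50 nuclei had the pericyte marker Vtn among its leading genes. The Ifnar1-/- F1 library had the fewest microglia (156) and the lowest median depth over its kept nuclei (4772.5 UMIs). Between pairs of libraries 3 to 30 barcode sequences recurred, 384 in all. Ifnar1 itself was at 16.2 to 19.9 CPM (counts-per-million, the UMIs of a gene scaled to all UMIs of the same nuclei) in Wt and 13.9 to 16.8 CPM in Ifnar1-/- over all nuclei, which overlap. In microglia it was at 42.4 to 62.1 CPM in Wt and 22.9 to 36.2 CPM in Ifnar1-/- (log2 difference -0.81, standard error 0.22), without overlap, though edgeR did not call it. Counts per gene do not show whether the deleted part was read.

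Tpm3 was higher and Tpm3-rs7 lower in Ifnar1-/- over all nuclei, and these are the values by which the genes were chosen. Tpm3 was at 70.6, 68.3, 69.1 and 74.6 CPM in Wt F1, F2, M1 and M2, and at 79.5, 90.9, 99.8 and 99.2 CPM in Ifnar1-/- F1, F2, M1 and M2. Every Ifnar1-/- library was above every Wt library, with F1 the nearest to Wt. The means were 70.6 ± 2.83 and 92.4 ± 9.48 CPM (SD, n = 4 each), a log2 difference of 0.39 (standard error 0.08), or 1.31-fold. Tpm3-rs7 was at 18.3, 16.8, 18.6 and 23.0 CPM in Wt and at 9.88, 4.28, 8.12 and 8.59 CPM in Ifnar1-/-, in the same order. Again the genotypes did not overlap, and Ifnar1-/- F2 had the lowest value. The means were 19.2 ± 2.64 and 7.72 ± 2.41 CPM, a log2 difference of -1.30 (standard error 0.25). Of all 19943 genes tested in the same contrast, edgeR called 10, or 0.0501%, at an adjusted p under 0.05, and since the rule used that contrast nothing is read from this share. In sums over all nuclei a change in the mix of cells and a change within a cell type cannot be told apart, so the classes follow.

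In glutamatergic neurons Tpm3 ran from 70.3 to 79.4 CPM in Wt and from 85.7 to 106.9 CPM in Ifnar1-/-, a log2 difference of 0.41 (standard error 0.08). Tpm3-rs7 was at 18.1, 16.3, 18.4 and 22.5 CPM in Wt F1, F2, M1 and M2 and at 9.80, 4.52, 7.83 and 8.52 CPM in the corresponding Ifnar1-/- libraries, a log2 difference of -1.27 (standard error 0.23). Neither gene overlapped between genotypes in this class. At an adjusted p under 0.05, edgeR called 12 of 18357 genes (0.0654%) there, which is a stricter measure than a lack of overlap. The share of all genes without overlap is not given for this or any other set of nuclei. Nothing is therefore read from the lack of overlap between genotypes here or below. In GABAergic neurons, with 0.0276% of genes called, Tpm3 ran from 42.5 to 50.7 CPM in Wt and from 61.2 to 69.2 CPM in Ifnar1-/- (log2 difference 0.49, standard error 0.09). Tpm3-rs7 there ran from 10.3 to 16.6 CPM in Wt and from 3.77 to 7.97 CPM in Ifnar1-/- (log2 difference -0.95, standard error 0.25). The same separation was seen in both neuron classes.

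Oligodendrocytes, the myelinating cells, gave fewer UMIs, 75 to 167 per library for Tpm3 and 10 to 55 for Tpm3-rs7. Tpm3 ran from 42.3 to 53.3 CPM in Wt and from 57.8 to 65.3 CPM in Ifnar1-/- (log2 difference 0.38, standard error 0.13), and Tpm3-rs7 from 11.8 to 24.0 CPM and from 5.95 to 11.5 CPM (log2 difference -1.02, standard error 0.30). The genotypes did not overlap in this class either, but for Tpm3-rs7 the highest Ifnar1-/- library (11.5) stood next to the lowest Wt library (11.8). In this class 0.0632% of genes were called.

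Microglia, the resident macrophages of the brain, had the highest levels of both genes and the widest Tpm3-rs7 gap. Tpm3-rs7 was at 109.1, 86.2, 90.6 and 88.6 CPM in Wt F1, F2, M1 and M2, from 50 to 130 UMIs per library. It was at 39.99, 11.2, 9.85 and 18.1 CPM in Ifnar1-/- F1, F2, M1 and M2, from 7, 9, 8 and 23 UMIs. All Ifnar1-/- libraries were below all Wt libraries, and the highest of them, F1, was the one with 156 microglia. The means were 93.6 ± 10.5 and 19.8 ± 13.95 CPM, a log2 difference of -2.55 (standard error 0.32), and -2.77 without Ifnar1-/- F1. Tpm3 in microglia was at 256.0, 313.3, 248.1 and 254.3 CPM in Wt and 297.1, 323.4, 295.4 and 282.7 CPM in Ifnar1-/-. Here the genotypes overlapped, because Wt F2 stood above 3 of the 4 Ifnar1-/- libraries, and the log2 difference was 0.17 (standard error 0.14), or 0.26 without Wt F2. The share of genes called in microglia was 0.105%.

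**Figure D2:**
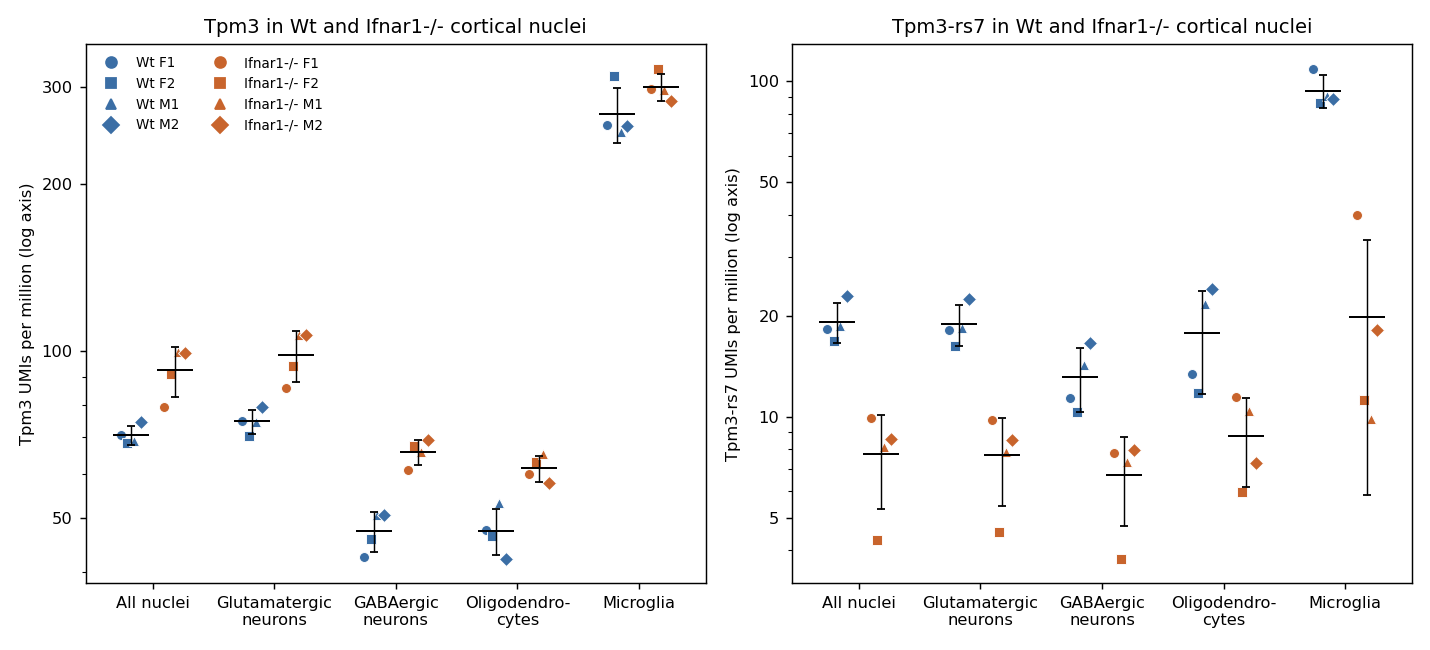
Each point is the sum of one library, in CPM on a log axis, for Tpm3 (left) and Tpm3-rs7 (right), with Wt in blue and Ifnar1-/- in orange. Horizontal lines are means and bars the SD of 4 mice. Tpm3-rs7 separates the genotypes in every set of nuclei shown, from 19.2 and 7.72 CPM over all nuclei to 93.6 and 19.8 CPM in microglia, and Tpm3 separates them in every set but microglia.

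Both differences can also be given in CPM, again as a description. Over all nuclei the mean of Tpm3 was 21.7 CPM higher and that of Tpm3-rs7 was lower, at a difference of -11.5 CPM. In microglia the order was turned, with 31.7 CPM more Tpm3 and a Tpm3-rs7 difference of -73.8 CPM. The sum of both genes was 89.8 ± 5.41 CPM in Wt and 100.1 ± 9.31 CPM in Ifnar1-/- over all nuclei, and 361.6 ± 27.8 and 319.4 ± 19.1 CPM in microglia (SD, n = 4 each). It was 93.6 ± 6.30 and 106.1 ± 10.45 CPM in glutamatergic neurons, 60.6 ± 6.52 and 72.6 ± 3.47 CPM in GABAergic neurons and 65.2 ± 7.34 and 70.3 ± 4.44 CPM in oligodendrocytes. The sums of the genotypes overlapped over all nuclei, in glutamatergic neurons and in oligodendrocytes. They did not in GABAergic neurons, where Ifnar1-/- was higher, or in microglia, where it was lower, but both gaps were narrow. The nearest sums were 69.0 CPM in Ifnar1-/- F1 and 67.3 CPM in Wt M2 in GABAergic neurons. In microglia they were 337 CPM in Ifnar1-/- F1, on 59 UMIs, and 338.7 CPM in Wt M1.

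Expressed as a share of the UMIs of both genes, Tpm3-rs7 made up 20.5, 19.8, 21.2 and 23.5% in Wt F1, F2, M1 and M2 over all nuclei. In Ifnar1-/- F1, F2, M1 and M2 it made up 11.1, 4.50, 7.52 and 7.97%. With all libraries of a genotype pooled, the share was 21.3% in Wt (3646 of 17136 UMIs, exact Clopper-Pearson 95% interval 20.7 to 21.9) and 7.65% in Ifnar1-/- (1401 of 18313 UMIs, 7.27 to 8.04), where the interval covers counting error only. The pooled Ifnar1-/- share was 6.84% without F1 and 8.55% without F2, and the deposited barcodes without any filter gave 21.4 and 7.61%. The share thus ran from 19.8 to 23.5% among the Wt mice. It ran from 4.50 to 11.1% among the Ifnar1-/- mice, with F1 highest and F2 lowest. The Wt mice also differed beyond counting error, since the 95% intervals of F2 (18.6 to 21.1%) and M2 (22.2 to 24.8%) did not meet.

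Among the 4 large classes the pooled Wt share was 27.9% in oligodendrocytes and 26.4% in microglia against 20.01% in glutamatergic and 21.7% in GABAergic neurons. In Ifnar1-/- the order was another, at 12.3% in oligodendrocytes, 4.91% in microglia, 7.22% in glutamatergic and 9.32% in GABAergic neurons. By mouse, the microglial share was above that of both neuron classes in all 4 Wt mice and below both in Ifnar1-/- F2, M1 and M2. In Ifnar1-/- F1 it was above them, at 11.9% (7 of 59 UMIs) against 10.3% in glutamatergic and 11.3% in GABAergic neurons. The 95% intervals of the pooled Ifnar1-/- shares were 6.78 to 7.69% in glutamatergic neurons and 3.63 to 6.47% in microglia, and these differences between classes were not tested. Within every one of these 4 classes each Ifnar1-/- library had a lower share than each Wt library. The nuclei with striatal markers gave 28.1% in Wt and 10.4% in Ifnar1-/-, and the oligodendrocyte precursors, on 27 and 33 UMIs of both genes, 18.5 and 3.03%. The Wt shares thus did not part glia from neurons.

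**Figure D3:**
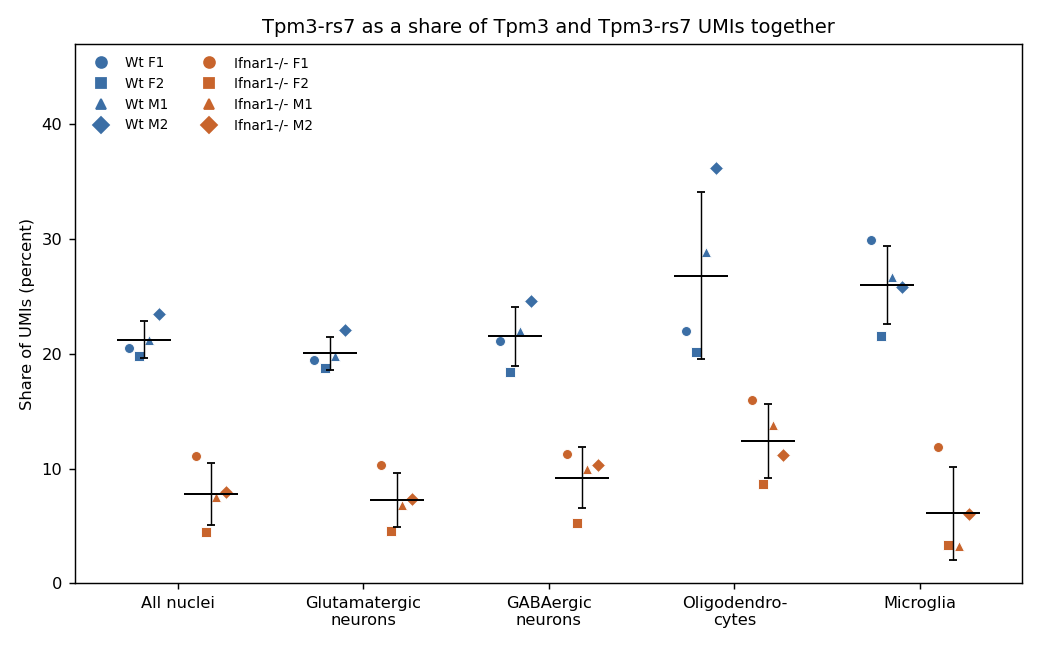
The y axis is Tpm3-rs7 as a percentage of the Tpm3 and Tpm3-rs7 UMIs of a library, by set of nuclei, with Wt in blue and Ifnar1-/- in orange, lines at the means and bars for the SD of 4 mice. All Ifnar1-/- points lie below all Wt points in each set, from 4.50 to 11.1% against 19.8 to 23.5% over all nuclei.

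The neuron subclasses are parts of the nuclei whose values chose the genes, and they are given as a description. In 11 subclasses named from markers (7 glutamatergic and 4 GABAergic), mean Tpm3 was higher in Ifnar1-/- in all 11, by 1.253 to 1.423 times, and the genotypes did not overlap in 7. Mean Tpm3-rs7 was lower in all 11, at 0.337 to 0.736 of the Wt level, the genotypes did not overlap in 8, and Ifnar1-/- F2 was the lowest library in 8. The subclasses come from the same 8 mice and are no independent replicates. The share of all genes without overlap in a subclass is not given here, so nothing is read from these counts. The Tpm3-rs7 share did not overlap between genotypes in 10 of the 11, and the exception was the layer 5/6 near-projecting neurons, with 12.5 to 29.5% in Wt and 6.67 to 15.9% in Ifnar1-/-. Pooled shares of the subclasses ran from 17.6 to 25.2% in Wt and from 5.51 to 12.1% in Ifnar1-/-.

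The genotypes overlapped for Tpm1, Tpm2 and Tpm4 over all nuclei and in each of the 4 classes. Tpm1, whose products include the main striated muscle tropomyosin and several neuronal forms, was at 51.3, 49.1, 67.3 and 67.2 CPM in Wt F1, F2, M1 and M2 and 51.9, 43.7, 68.6 and 71.0 CPM in Ifnar1-/- over all nuclei. Its log2 genotype difference was 0.01 (standard error 0.17) and lay between -0.04 and 0.04 in the 4 classes. The 4 low values were the female libraries and the 4 high values the male libraries. Tpm4, a cytoskeletal tropomyosin, was at 5.49, 4.39, 6.63 and 7.05 CPM in Wt and 4.40, 5.17, 7.72 and 6.88 CPM in Ifnar1-/-, a log2 difference of 0.04 (standard error 0.21), and again the male libraries were the higher ones. In oligodendrocytes Tpm4 had a log2 difference of 0.49 (standard error 0.32), larger than that of Tpm3 there, with 7.45 to 8.44 CPM in Wt and 6.00 to 18.8 CPM in Ifnar1-/-. In the other 3 classes it lay between -0.05 and 0.12. Tpm2, known from muscle, was scarce, with 230 UMIs in all 52054 nuclei. It ranged from 0.336 to 0.832 CPM in Wt and from 0.257 to 0.918 CPM in Ifnar1-/-. In GABAergic neurons, on 91 UMIs, its log2 difference was 0.57 (standard error 0.38), with 1.22 to 1.92 CPM in Wt and 0.837 to 3.16 CPM in Ifnar1-/-. None of these genes separated the genotypes in any of the 11 neuron subclasses.

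Levels of the members differed between cell classes. Each class was set against the others in one fit of 32 sums, 4 classes in 8 mice, with the mouse as a block, and tested by edgeR's quasi-likelihood test with Benjamini-Hochberg adjustment over 14855 genes. Tpm2 did not pass the filter on low counts, so 4 members were tested. No member was among the variable genes used for clustering. Such differences are common among all genes: 64.6% were called between glutamatergic and GABAergic neurons, 81% between glutamatergic neurons and oligodendrocytes, 81.1% between glutamatergic neurons and microglia, 77.4% between GABAergic neurons and oligodendrocytes, 78.3% between GABAergic neurons and microglia and 59.6% between oligodendrocytes and microglia. Of the 4 members, 2, 3, 4, 3, 4 and 3 were called in these pairs, in the same order. These shares are near the background, and the account below is of sizes and order. The log2 differences below include a scaling between sums (TMM) that the printed CPM do not, so the sizes can differ. For Tpm3, glutamatergic neurons were at 0.394 of the microglial level with TMM, beside means of 86.6 and 283.8 CPM without it.

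Tpm3 was highest in microglia, with a mean of 283.8 ± 28.5 CPM (SD, n = 8), then glutamatergic neurons at 86.6 ± 14.6, GABAergic neurons at 56.7 ± 10.4 and oligodendrocytes at 54.5 ± 8.39 CPM. The lowest microglial library (248.1 CPM) was above the highest library of glutamatergic neurons (106.9 CPM). Glutamatergic neurons stood below microglia by a log2 difference of -1.34 (standard error 0.06, edgeR adjusted p = 6.38e-21) and above GABAergic neurons by 0.74 (standard error 0.06, edgeR adjusted p = 1.06e-13). GABAergic neurons and oligodendrocytes, neighbours in this order, did not differ beyond their spread (log2 difference -0.01, 95% interval -0.16 to 0.14, edgeR adjusted p = 0.907).

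Tpm3-rs7 was also highest in microglia, at 56.7 ± 41.1 CPM over both genotypes, where the spread is that between genotypes. It stood at 13.3 ± 6.38 CPM in glutamatergic neurons, 13.2 ± 6.42 in oligodendrocytes and 9.93 ± 4.12 in GABAergic neurons. Glutamatergic neurons minus microglia gave -1.69 on the log2 scale over both genotypes (standard error 0.15, edgeR adjusted p = 4.26e-13), and the call was also made in the Wt mice alone. The pooled value describes neither genotype, since microglia and glutamatergic neurons stood at 93.6 and 18.8 CPM in Wt and at 19.8 and 7.67 CPM in Ifnar1-/-. Glutamatergic neurons exceeded GABAergic neurons by 0.54 (standard error 0.13, edgeR adjusted p = 0.000323). Glutamatergic neurons and oligodendrocytes did not differ beyond their spread (log2 difference 0.07, 95% interval -0.25 to 0.39, edgeR adjusted p = 0.689). The call between GABAergic neurons and oligodendrocytes (log2 difference -0.47, edgeR adjusted p = 0.0226) was lost with DESeq2 (adjusted p = 0.059), with library totals in place of TMM (0.0534 in edgeR) and without Wt M1 (0.0668) or Wt M2 (0.114).

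Tpm1 had another order, with GABAergic neurons at 61.0 ± 10.9 CPM, glutamatergic neurons at 60.0 ± 10.7, microglia at 45.6 ± 13.3 and oligodendrocytes at 29.7 ± 12.1 CPM (SD, n = 8). The neuron classes did not differ beyond their spread (log2 difference 0.10, 95% interval -0.02 to 0.23, edgeR adjusted p = 0.155), a call that appeared without the filter on low counts (0.0153 in edgeR). Both neuron classes exceeded oligodendrocytes, by 1.08 (standard error 0.09, edgeR adjusted p = 2.42e-14) and 0.98 (standard error 0.09, edgeR adjusted p = 1.82e-12). The difference between oligodendrocytes and microglia was -0.29 (edgeR adjusted p = 0.0400). It lost its call in edgeR without the filter (0.0756), in the Wt mice alone (0.165) and without Wt F2 (0.0943), Ifnar1-/- F1 (0.0713), Ifnar1-/- M1 (0.0516) or Ifnar1-/- M2 (0.0562).

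Tpm1 also varied within neurons. It was at 91.0 ± 12.3 CPM in parvalbumin interneurons, 53.1 ± 12.5 in somatostatin interneurons, 34.7 ± 12.0 in Vip interneurons and 28.1 ± 11.9 in Lamp5 interneurons, and at 94.7 ± 24.3 CPM in Car3 neurons against 35.6 ± 7.88 CPM in layer 5/6 near-projecting neurons. The highest mean of Tpm1 in any class, 203.1 ± 30.7 CPM, was in the 454 nuclei that resembled oligodendrocyte precursors, on 259 UMIs. These subclass levels were not tested.

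Tpm4 was lowest in glutamatergic neurons, at 5.11 ± 1.04 CPM, followed by GABAergic neurons (6.41 ± 1.92), oligodendrocytes (9.70 ± 3.95) and microglia (14.7 ± 5.04). Oligodendrocytes and microglia exceeded glutamatergic neurons, given as glutamatergic neurons minus oligodendrocytes (-0.80, standard error 0.15, edgeR adjusted p = 7.51e-06) and minus microglia (-0.99, standard error 0.19, edgeR adjusted p = 8.91e-06). The neuron classes did not differ beyond their spread (95% interval -0.42 to 0.04, edgeR adjusted p = 0.147), nor did oligodendrocytes and microglia (95% interval -0.59 to 0.22, edgeR adjusted p = 0.457), while both gained a call with library totals (0.0167 and 0.0442 in edgeR). The step between GABAergic neurons and oligodendrocytes (-0.61, edgeR adjusted p = 0.000932) lost its call in the 4 Wt mice alone (0.141). Car3 neurons stood out by level, at 27.0 ± 16.2 CPM. Of the 230 Tpm2 UMIs, 91 were in GABAergic neurons, 58 of these in parvalbumin and 23 in Vip interneurons.

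**Figure D4:**
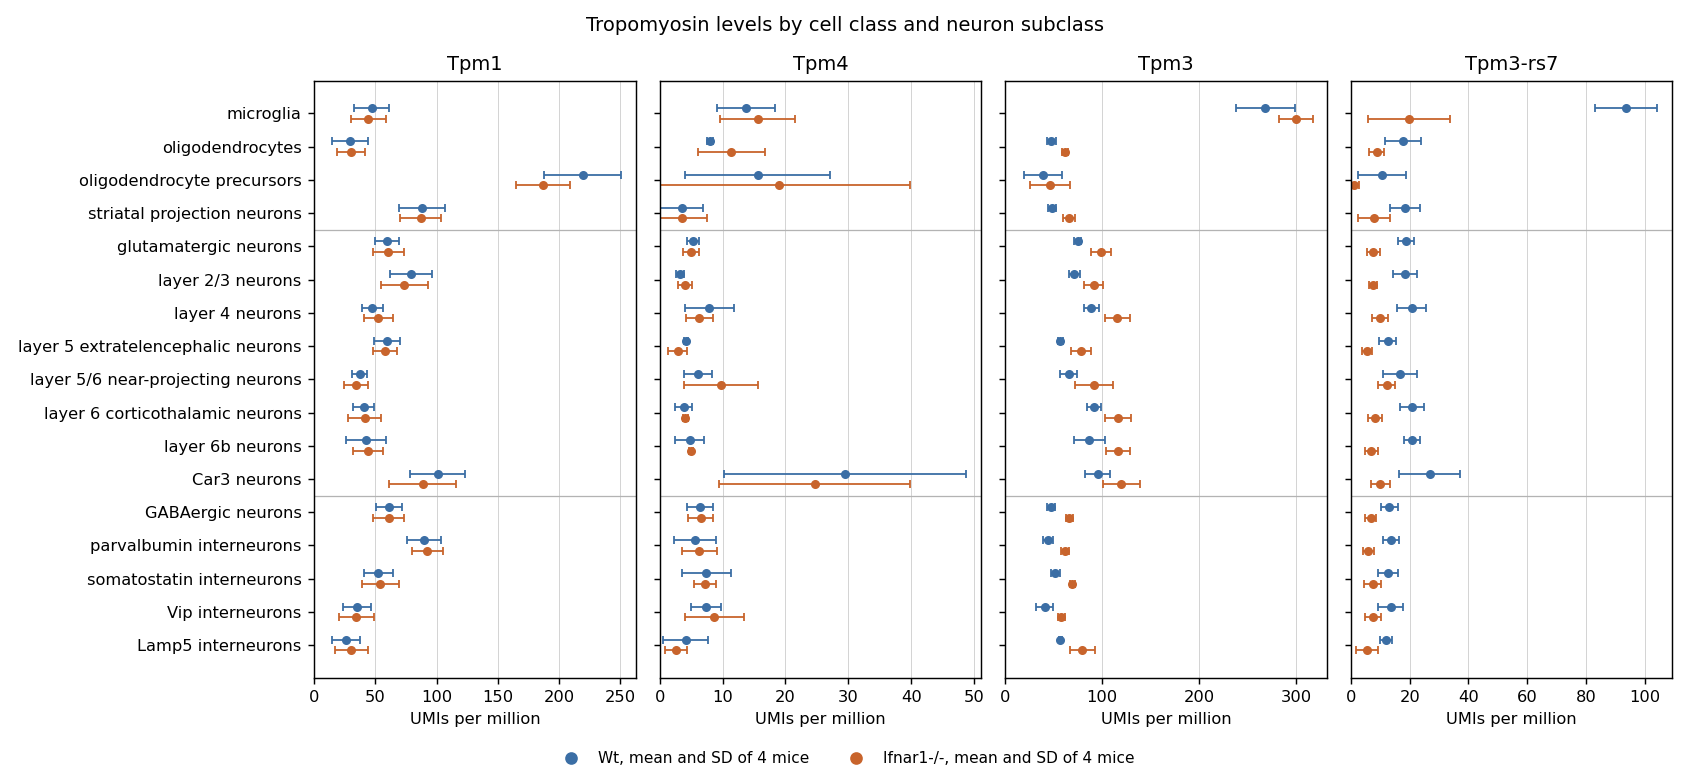
Points are the means of 4 Wt (blue) and 4 Ifnar1-/- (orange) mice and bars the SD, in CPM, by class and by neuron subclass, with a panel for each of Tpm1, Tpm4, Tpm3 and Tpm3-rs7 and its own linear axis. Microglia stand apart for Tpm3 (267.9 and 299.6 CPM) and, in Wt, for Tpm3-rs7 (93.6 CPM), and oligodendrocyte precursors for Tpm1.

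Sex was not part of the choice of genes and was tested with genotype as a covariate. Tpm1 was higher in males in all 4 classes. In glutamatergic neurons it was at 53.1 and 48.9 CPM in Wt females, 52.4 and 46.8 in Ifnar1-/- females, 66.5 and 69.7 in Wt males and 69.9 and 72.7 in Ifnar1-/- males, a log2 difference of 0.41 (standard error 0.08, edgeR adjusted p = 0.00411). In oligodendrocytes the values were 15.4, 18.6, 22.9 and 17.9 CPM in females and 44.2, 39.2, 37.5 and 41.6 CPM in males, a log2 difference of 1.02 (standard error 0.17, edgeR adjusted p = 0.00105), or 2.02-fold. Female and male libraries did not overlap for Tpm1 in any of these 4 classes. They did in the nuclei with striatal markers (male Ifnar1-/- M1 at 76.1 CPM, female Wt F2 at 88.9 CPM). They also did in the oligodendrocyte precursors (male Ifnar1-/- M1 at 189.2 CPM, female Wt F1 at 207.1 CPM). GABAergic neurons gave 51.6 ± 3.61 and 70.4 ± 5.40 CPM in females and males (log2 difference 0.37, standard error 0.09, edgeR adjusted p = 0.0131). Microglia gave 34.3 ± 6.48 and 56.8 ± 5.65 CPM (log2 difference 0.78, standard error 0.20, edgeR adjusted p = 0.0149), a call lost without Wt F1 (0.0678) or Ifnar1-/- F2 (0.0907).

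Differences between male and female libraries were widespread: of all genes 30.2% were called for glutamatergic and 25.4% for GABAergic neurons, 22.9% for oligodendrocytes and 19.7% for microglia, against 2 of 4, 2 of 5, 1 of 4 and 1 of 4 members tested. The labels give no batch of dissection, nuclei or library preparation, so sex and any such batch cannot be told apart. The p-values measure the spread between these mice.

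Tpm4 was higher in males in both neuron classes, at 6.01 ± 0.220 against 4.20 ± 0.552 CPM in glutamatergic neurons (log2 difference 0.46, standard error 0.13, edgeR adjusted p = 0.0277) and 7.97 ± 1.09 against 4.85 ± 0.961 CPM in GABAergic neurons (0.63, standard error 0.20, edgeR adjusted p = 0.0405). Female and male libraries did not overlap in either. The call in glutamatergic neurons was lost without Wt F2 (adjusted p = 0.0811 in edgeR), Wt M2 (0.0683), Ifnar1-/- F1 (0.0526), Ifnar1-/- F2 (0.0775) or Ifnar1-/- M1 (0.0703). That in GABAergic neurons was lost with DESeq2 (adjusted p = 0.09) and in edgeR without Wt F1 (0.0784), Wt F2 (0.103), Wt M2 (0.146), Ifnar1-/- F1 (0.0994) or Ifnar1-/- M1 (0.101). In oligodendrocytes (log2 difference 0.32, 95% interval -0.26 to 0.90) and microglia (0.15, 95% interval -0.56 to 0.86) the test was not passed. Tpm3 and Tpm3-rs7 did not pass it in any class. Their intervals were -0.03 to 0.25 and -0.23 to 0.55 on the log2 scale in glutamatergic neurons.

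**Figure D5:**
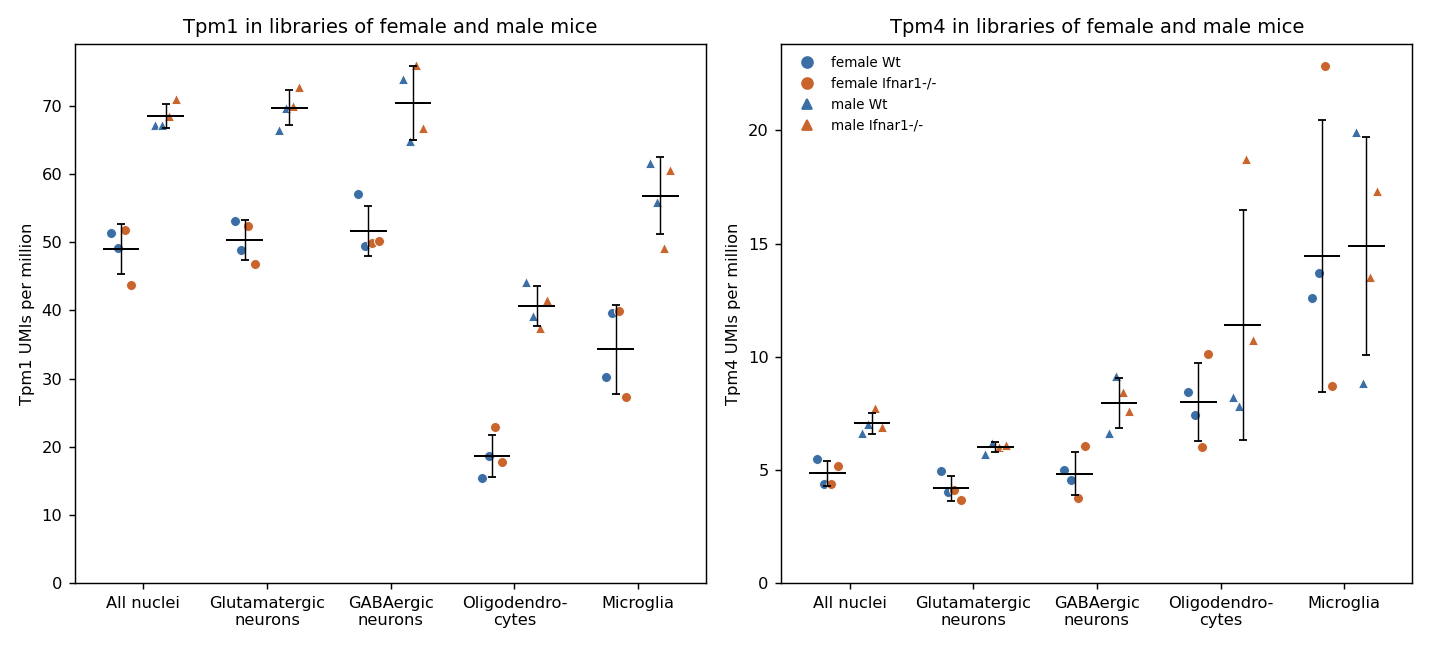
Each point is one library, in CPM, of female (circles) and male (triangles) mice, for Tpm1 (left) and Tpm4 (right), with Wt in blue and Ifnar1-/- in orange, lines at the means and bars for the SD of 4 libraries. For Tpm1 the male points lie above the female points in every set of nuclei shown, and for Tpm4 they do so over all nuclei and in both neuron classes.

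Whether the genotype difference itself differed between males and females was tested as an interaction, with 2 mice in each combination. None of the 5 members tested in each neuron class, nor of the 4 tested in each glial class, was called by edgeR or DESeq2, and the share of all genes called was 0% in each class. At an unadjusted p under 0.05 there were 334 and 240 genes in the glutamatergic and GABAergic classes and 322 and 251 in oligodendrocytes and microglia. For Tpm3-rs7 in glutamatergic neurons the interval ran from -0.88 to 0.78 on the log2 scale, and in microglia from -1.34 to 1.02, so only a large difference between the sexes could have been seen.

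Proteins that act with tropomyosin on the actin filament were looked up as a list of 65 genes: tropomodulins and leiomodins, troponins, caldesmon and calponins, actins, class II myosin chains, cofilins, Arp2/3 subunits, formins, and capping and severing proteins. Between genotypes edgeR called 0 of the 60 tested over all nuclei, of 55 and 47 in the glutamatergic and GABAergic classes, and of 43 and 35 in oligodendrocytes and microglia. At an unadjusted p under 0.05 there were 1, 0, 2, 1 and 0. Of all genes 0.0501, 0.0654, 0.0276, 0.0632 and 0.105% were called and 1.46, 1.74, 1.88, 1.99 and 1.55% had an unadjusted p under 0.05, so the counts of the list cannot be told from this background. The median log2 difference of the list lay between -0.042 and 0.014 in these sets, and that of all genes between -0.003 and 0.004. Tmod2, which caps the slow-growing filament end together with tropomyosin in neurons, was at 98.4 ± 11.1 CPM in Wt and 100.3 ± 12.1 CPM in Ifnar1-/- glutamatergic neurons (log2 difference 0.04, standard error 0.10). Actr2, a subunit of the branching complex Arp2/3 that many tropomyosins keep off the filament, was at 110.7 ± 13.5 and 110.5 ± 12.5 CPM there.

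Between classes most genes of the list were called, as were most of all genes, and the difference between these shares was not tested. Of the 46 tested, 14 were higher and 26 lower in glutamatergic neurons than in microglia (87.0% against 81.1% of all genes), and 13 were higher and 29 lower in glutamatergic neurons than in oligodendrocytes (91.3% against 81%). Between oligodendrocytes and microglia 18 were higher and 18 lower in the former (78.3% against 59.6%), and between glutamatergic and GABAergic neurons 22 and 15 (80.4% against 64.6%). GABAergic neurons had 8 higher and 31 lower than oligodendrocytes (84.8% against 77.4%) and 13 higher and 27 lower than microglia (87.0% against 78.3%). Of the 9 Arp2/3 subunits, 8 were lower in glutamatergic neurons than in microglia. Of the 14 formins tested in the same pair, 8 were higher and 4 lower. Since 81.1% of all genes were called in this pair, nothing is read from these counts. Actr2 in microglia was at 283.9 ± 19.7 CPM in Wt and 300.2 ± 18.9 CPM in Ifnar1-/-. Of the 3 tropomodulins tested, 2 were higher and 1 lower in oligodendrocytes than in microglia, a pair in which 59.6% of all genes were called. Tmod1 was at 367.2 ± 36.9 CPM and Tmod2 at 427.9 ± 72.8 CPM in Wt oligodendrocytes. Tnni1, the slow troponin inhibitor of muscle, was at 122.7 ± 18.4 CPM in Wt oligodendrocytes and 0.306 ± 0.0893 CPM in Wt glutamatergic neurons.

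Genes near the members were looked up in the same contrast. Of the genes starting within 1 Mb, 60 were tested over all nuclei for Tpm3, 24 for Tpm1, 39 for Tpm2 and 47 for Tpm4, and edgeR called 0 between genotypes, where 0.0501% of all genes were called, so few calls could have been seen. Of the 60 near Tpm3, 4 had an unadjusted p under 0.05 in edgeR, against 292 of all 19943 genes (1.46%). Near Tpm1, Tpm2 and Tpm4 there were 0, 1 and 0. Whether the share near Tpm3 exceeds that of all genes was not tested. The log2 differences of the 60 genes ran from -0.47 to 0.95, with 23 above 0. Around Tpm3-rs7 the annotation lists 9 genes within 1 Mb, none of which is in the count tables, so its surroundings could not be described. The interferon-stimulated response element, written as GAAA, any 2 bases and GAAA and bound by interferon regulatory factors, was searched on both strands in RefSeq promoters (250 bases before to 50 after the start). It occurred in none of the 5 entries for Tpm1 (1), Tpm2 (1), Tpm3 (2) and Tpm4 (1), and in 1131 of 32851 promoters of the whole table (3.44%). Tpm3-rs7 has no entry in the table.

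The genes whose levels ran most like a member's were ranked by Pearson's r of log2(CPM + 1) over the 32 sums, which share libraries and class depths. For Tpm1 the leading genes were Eno2 (r = 0.97), a neuronal enolase, and Fndc4 (0.95). For Tpm3 they were Olfr111 (0.97), Mylip (0.96) and Numb (0.96), and for Tpm4 Mkrn1 (0.85), Scaf1 (0.84) and Arl8b (0.83). For Tpm3-rs7 they were Lgals3bp (0.78), Polr2e (0.76) and 2510046G10Rik (0.73), so no gene ran as close to Tpm3-rs7 as these did to Tpm1 and Tpm3. Tpm3 and Tpm3-rs7 themselves had r = 0.45 over the same sums and r = -0.81 over the 8 libraries (all kept nuclei). The latter value includes the genotype difference by which both genes were chosen. Over the 8 libraries the genotypes stand apart for both genes, and 19943 genes were ranked. The leading genes were Gm38392 (r = 0.98), Gm12865 (0.94) and Tspear (0.94) for Tpm3, and Sp100 (0.95), Myo1a (0.92) and A530001N23Rik (0.91) for Tpm3-rs7. With 8 points and so many genes, high values of r can arise by chance, so nothing is read from these names.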

How the data were processed

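Nuclei from snap-frozen cortex were sequenced as 1 library per mouse with the Single Cell 3′ v3 chemistry. The authors used Cell Ranger on mouse mm10, set so that unspliced RNA was counted too, and deposited raw UMI counts per gene and barcode, before filters, doublet removal and integration. The authors' cell annotation (Seurat 3.1.5 is named per the labels) was not used here. Nuclei with 200 to 6000 genes, over 1000 UMIs and under 10% mitochondrial UMIs were kept, Scrublet in scanpy 1.11.5 (Python 3.11.15) removed 2287 doublets, and 3000 variable genes and 40 principal components gave 36 clusters, named from markers. UMIs were summed per class and mouse. edgeR 4.0.16 (R 4.3.3) was fitted with TMM, filterByExpr and the quasi-likelihood test, with Benjamini-Hochberg adjustment over all genes tested and a threshold of 0.05. CPM printed for single libraries and their means are without TMM, while the log2 differences are with it. DESeq2 1.42.0, library totals, no filter, sex as covariate, a replicate block and leaving out each library were the alternatives. The genotype fit in each of the 4 classes was also run on simulated counts with 200 changed genes. The simulated counts held no sex difference, and the class, sex and interaction fits were not simulated. Transcripts were aligned with Biopython 1.88.

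The members, lists and tests were chosen with earlier results of these data known. All 5 members were named, with partner or neighbour genes called between genotypes, up to 2 examples of level per partner group and the 3 likest genes per member. Same-numbered mice deviated together from their genotype means, with correlations from 0.17 to 0.74 in the 4 classes. They also share sex, which was not taken out of these values, and most mice were closest to another of the same sex. The correlations therefore do not show that equal numbers are pairs. The numbers come from the sample titles and were taken as pairs for the block. Of the genes whose levels ran most like those of Tpm1, 1 is not reported here.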

Additional observations from a re-analysis of the deposited data

Results flagged for a closer look

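In each genotype and set of nuclei, the highest and lowest of 4 libraries were set against the others, in 60 groups of values, of which chance would single out about 1 in 20. Tpm3-rs7 in Ifnar1-/- GABAergic neurons stood at 3.77 CPM in F2 against 7.32 to 7.97 CPM in the other Ifnar1-/- libraries, a gap of 0.845 of the range. This library was the lowest for Tpm3-rs7 in glutamatergic neurons and oligodendrocytes as well, at 4.52 and 5.95 CPM, and had the fewest kept nuclei (4313) and the highest median depth (9813 UMIs). The part of these values in the low level was not tested. The log2 genotype difference of Tpm3-rs7 in GABAergic neurons was -0.95, and -0.77 without F2.

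Tpm3 in Wt microglia stood at 313.3 CPM in F2 against 248.1 to 256.0 CPM in the others, a gap of 0.879 of the range. It is the library through which the genotypes overlapped for Tpm3 in this class.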

How the results depend on the processing

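All 198 alternative values of the interaction for the members and all 42 of the Tpm3-rs7 share stayed within the limits of the reported ones, as did 285 of 286 genotype differences of members, the exception being Tpm2 over all nuclei (0.54 without Ifnar1-/- F2). Class tests kept their side of the threshold in 274 of 288 values, with 11 calls lost and 3 gained, and sex tests in 174 of 187, with 13 lost, and no direction of a called difference turned. The counts of genes called between genotypes were less stable, and the cause was not tested. DESeq2 called 43 genes over all nuclei, 46 in glutamatergic neurons, 18 in GABAergic neurons and 17 in oligodendrocytes, and sex as a covariate gave 22, 26, 11 and 18. Without the filter 22 were called in microglia and 12 in oligodendrocytes. With the replicate block, which pairs equal numbers, 17 were called in microglia and 14 in oligodendrocytes, and the block changed no other count by over 1.5 times. Leaving out 1 library gave 4 to 7 genes over all nuclei, 4 to 8 and 2 to 4 in the glutamatergic and GABAergic classes, and 2 to 7 and 3 to 14 in oligodendrocytes and microglia. For sex it gave 3298 to 6429, 2021 to 4562, 1578 to 2736 and 903 to 2198 genes in glutamatergic neurons, GABAergic neurons, oligodendrocytes and microglia. For the interaction, no filter called 11 genes in GABAergic neurons and 3 in oligodendrocytes. With library totals in place of TMM, the share of sex calls higher in males went from 57.3 to 71.5% in GABAergic neurons and from 58.3 to 78.3% in oligodendrocytes, and the share of class calls higher in the first class from 45.9 to 32.7% (glutamatergic against GABAergic neurons), 51.4 to 39.9% (glutamatergic neurons against microglia) and 51.0 to 33.7% (oligodendrocytes against microglia). Depth limits Tpm3-rs7 in Ifnar1-/- microglia (7 to 23 UMIs per library) and Tpm2 everywhere.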
